A study of Mus musculus with 15 samples.

Results

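The gene clusters described here hold the keratins and the proteins of the outer skin layer, and they were read in chromatin maps of mouse hepatocytes, a cell type that uses few of these genes. They were taken as 3 fixed windows of the mm9 genome: the type I keratin and keratin-associated cluster on chromosome 11 from 99100001 to 100050000, the type II keratin cluster on chromosome 15 from 101150001 to 101900000, and the epidermal differentiation complex on chromosome 3 from 92000001 to 93400000. Cut into steps of 50 kb, they gave 62 windows (19, 15 and 28) of 49434 on the autosomes, and each cluster was set against the 1 Mb on either side of it, 120 windows in all. The limits came from positions alone and used no measured value. The mm9 positions of single genes were not determined here, so the values below are those of windows and not of genes.

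The maps came from srHC-seq, in which crosslinked chromatin is sonicated and DNA fragments are separated by length, since compact chromatin resists shearing. Hepatocytes were isolated by perfusion of the liver from 15 mice in 3 groups of 5: wild type at postnatal day 14 (P14; genotype Wt, 3 males and 2 females), knockout at P14 (genotype Alb-Cre;Ezh1-/-;Ezh2f/f, 2 males and 3 females), and wild type at 2 months (genotype Wt, 2 males and 3 females). In the knockout Ezh1 is a null allele in every cell, while Ezh2 is removed by a Cre recombinase under the albumin promoter, which acts in hepatocytes, so other liver cells in a preparation would keep Ezh2. Each group had 1 map, read as a pool of its animals, and the lists sort all autosomal DNA into 3 classes, here named as in the lists: het for closed, euch for open and int for what lies between. With 1 map a group there is no replicate spread, no test and no p-value for any difference below. The files carry neither gene values nor depth, so the identity of the cells could not be checked against marker genes.

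Keratins build the intermediate filaments of epithelial cells, and each filament pairs a type I with a type II chain. Genes of the 2 types lie in separate clusters, apart from Krt18, a type I gene beside Krt8 at the end of the type II cluster. A group of keratin-associated genes, which encode hair proteins, lies among the type I keratins. Krt5 marks the basal layer of skin and Krt10 the layers above it, whereas Krt8 and Krt18 form the pair of simple epithelia and the main keratin pair of hepatocytes. The epidermal differentiation complex holds involucrin (Ivl), loricrin (Lor), filaggrin (Flg), and the Sprr and Lce families, which build the cornified envelope of dying keratinocytes. It also holds S100 genes for calcium-binding proteins, of which S100a10 and S100a11 are used by many cell types. Ezh1 and Ezh2 are the alternative catalytic subunits of PRC2, which methylates histone H3 at silent genes and has been described as holding back genes of this complex in epidermal progenitors.

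By the gene order of RefSeq (GRCm38.p6, another build, used here for names and neighbours), the type I cluster from Krt222 to Krt42 held 27 protein-coding genes named as keratins and 23 named as keratin-associated. The type II cluster from Krt80 to Krt78 held 24, with Krt8 and Krt18 next to it at the distal end, and the complex from Lor to S100a10 held 47 genes of the listed families, S100a11 and S100a10 last. These limits are those of gene order. Whether the mm9 windows reach all of these genes was not checked, so genes near either end, such as Krt42 or Lor, may lie in what is here called a flank. RefSeq promoters were matched for 20, 21, 14, both and 44 of these genes. To show what the start of such a gene looks like beside those of the hepatocyte pair, the 150 bases before the start are printed for 5 genes, on the gene's own strand, with CG pairs in capitals.
Krt8 (minus strand): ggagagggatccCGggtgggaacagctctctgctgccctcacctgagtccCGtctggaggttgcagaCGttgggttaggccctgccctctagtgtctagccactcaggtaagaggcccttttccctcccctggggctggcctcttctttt
Krt18 (plus strand): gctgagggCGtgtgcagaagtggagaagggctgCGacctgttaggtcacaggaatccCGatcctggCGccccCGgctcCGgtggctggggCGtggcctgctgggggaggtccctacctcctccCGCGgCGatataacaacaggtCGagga
Krt5 (minus strand): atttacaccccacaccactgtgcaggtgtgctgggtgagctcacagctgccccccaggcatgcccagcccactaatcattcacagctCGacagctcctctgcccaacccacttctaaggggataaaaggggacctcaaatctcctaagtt
Krt10 (minus strand): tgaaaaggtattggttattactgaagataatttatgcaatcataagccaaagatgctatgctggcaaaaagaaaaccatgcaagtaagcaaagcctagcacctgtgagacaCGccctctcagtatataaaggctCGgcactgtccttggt
Ivl (minus strand): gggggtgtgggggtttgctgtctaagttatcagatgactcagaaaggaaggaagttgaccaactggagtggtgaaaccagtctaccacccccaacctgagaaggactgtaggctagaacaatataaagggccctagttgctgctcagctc

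Krt18 held 11 CG pairs in these 150 bases, Krt8 3, Krt10 2, Krt5 1 and Ivl 0. Over the 250 bases before the start, the median number of CG pairs was 3.5 for type I keratins, 3.5 for type II keratins, 1 for keratin-associated genes and 1 for the epidermal complex, against 6 over 27025 genes with a promoter in the table. In these 250 bases Krt18 held 12 and Krt8 3, while type II keratins ranged from 1 to 16 and type I keratins from 1 to 8. TATAAA, searched on both strands, was found in 20 of 21 promoters of keratin-associated genes, 12 of 20 of type I keratins, 5 of 14 of type II keratins and 20 of 44 of the complex, against 13.0% of all genes. It was in neither the Krt8 nor the Krt18 window. These letters describe the genes and were not placed on the maps.

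In all 3 maps both keratin clusters were more closed than the 1 Mb on either side, and the epidermal complex was more open than its own flanks. The type II cluster was closed over most of its length, whereas the type I cluster and the complex were mixed. Het covered 65.5% of the type I cluster in wild-type hepatocytes at P14, 48.4% in the knockout and 53.1% at 2 months. In its flanks het covered 29.5%, 19.3% and 16.1%, in the same order. The type II cluster was the most closed of the clusters, with het on 82.9%, 72.5% and 72.5% of its bases, against 37.5%, 27.6% and 28.9% in its flanks. Het covered 48.4%, 45.7% and 55.7% of the epidermal complex and 69.8%, 75.0% and 72.7% of its flanks, against 45.4%, 46.0% and 46.2% of all autosomes. The complex was thus close to the autosomes at P14 and above them at 2 months, when its het share was also above that of the type I cluster.

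**Figure D1:**
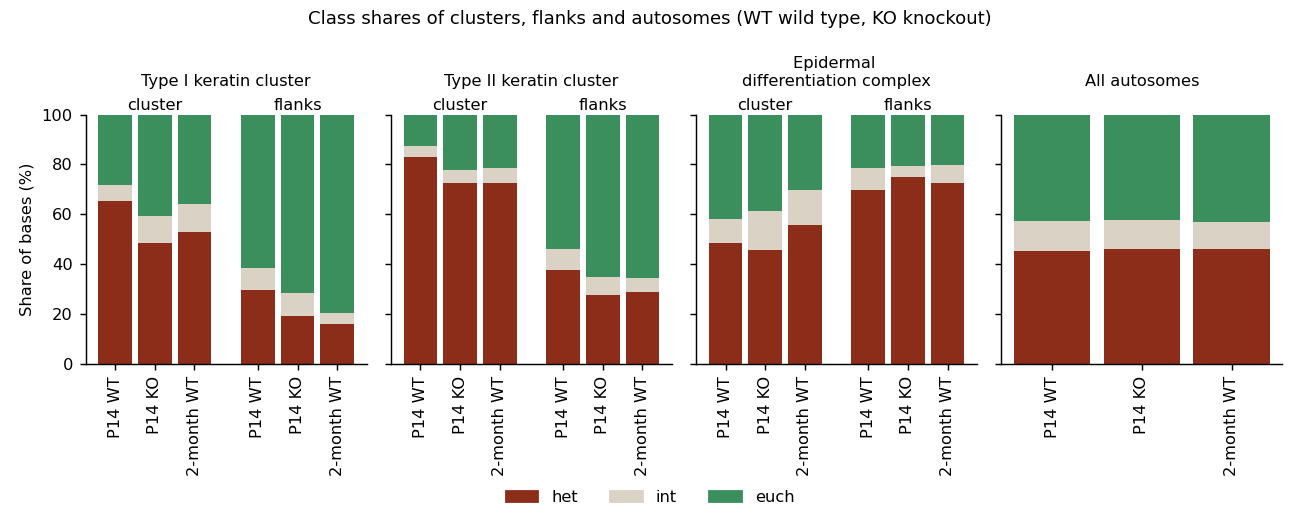
Share of bases (%) called het, int and euch in each cluster, in its combined 1 Mb flanks and on all autosomes, 1 bar for each of the 3 maps. Het takes more of both keratin clusters than of their flanks, 82.9% against 37.5% for type II in P14 wild-type hepatocytes, and less of the epidermal complex than of its flanks, 48.4% against 69.8%.

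Openness, the euch share of a region minus its het share, runs from -1 (all closed) to 1 (all open). For the type I cluster it was -0.371 in wild-type hepatocytes at P14, -0.0779 in the knockout and -0.173 at 2 months, and its differences from the flanks were -0.690, -0.601 and -0.809. The type II cluster scored -0.704, -0.504 and -0.512, with differences of -0.868, -0.881 and -0.877. Cluster and flanks of type II both scored higher in the other maps than in P14 wild type. With flanks of 500 kb the differences of the type II cluster were -0.944, -0.904 and -0.988, further apart than with 1 Mb. The epidermal complex scored -0.0643, -0.0700 and -0.253, which is 0.418, 0.474 and 0.270 above its flanks. At 2 months it was 0.00914 above the distal flank alone and 0.531 above the proximal one. That contrast depended on how far the flanks reached: against 2 Mb on either side, the complex was 0.0972 and 0.0610 above them in the P14 maps, and at 2 months its difference from them was -0.157.

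**Figure D2:**
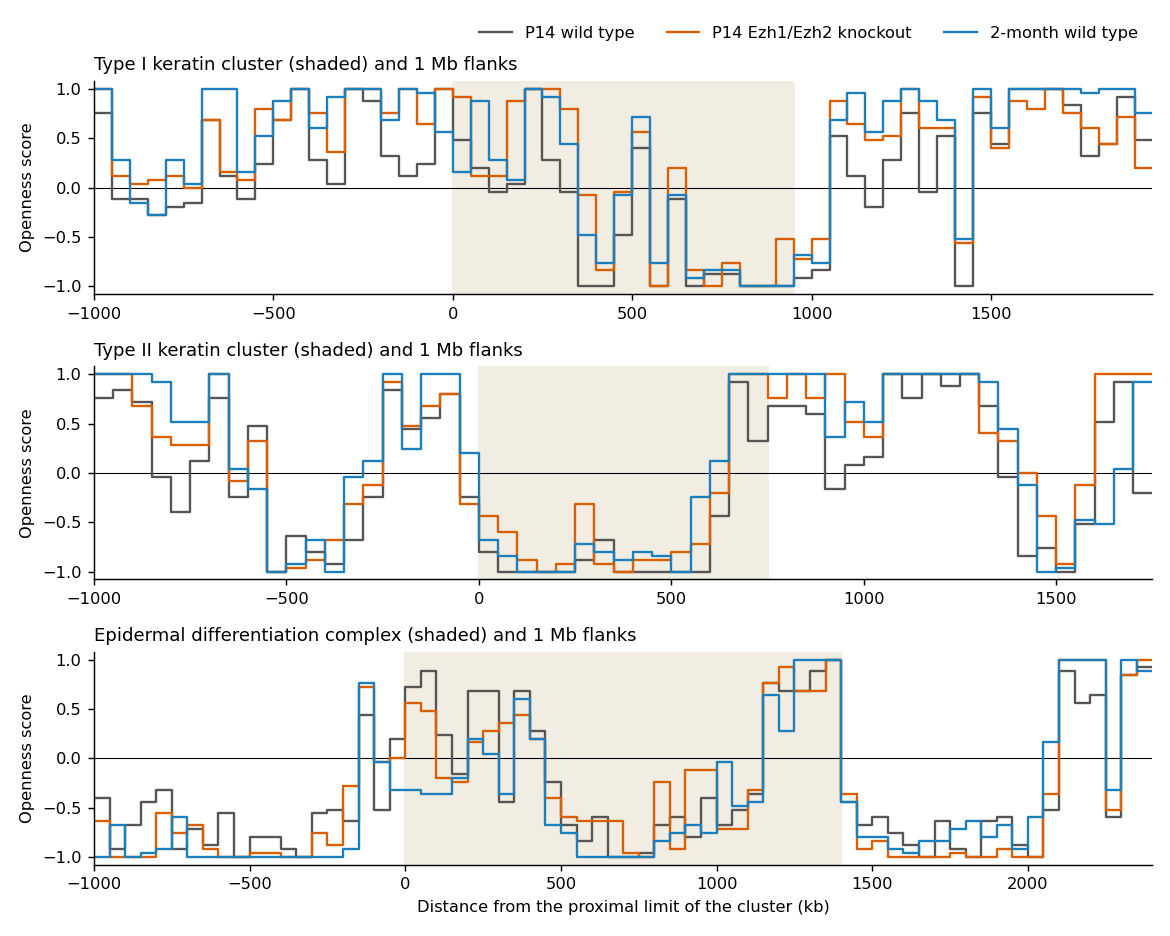
Openness score of each 50 kb window against distance (kb) from the proximal limit of the cluster, with the cluster shaded, the 1 Mb flanks on either side and 1 line for each of the 3 maps. The type II cluster and the distal part of the type I cluster show as troughs near -1, and the type II trough ends in 2 open distal windows, while the epidermal complex is open at its distal end and closed in its middle.

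The type II cluster was closed from its proximal limit almost to its distal end, the end of Krt8 and Krt18, where windows were open. In P14 wild-type hepatocytes 9 of its 15 windows were het throughout, against 11.9% of all autosomal windows. In the knockout 2 were, and at 2 months 4 were, against 14.1% and 18.7% of autosomal windows. The count was thus lower in both other maps, where the autosomal percentage was higher. A single het domain of 286 kb, from 101158001 to 101444000, took 38.1% of the cluster in P14 wild type. The longest het domain was 142 kb in the knockout (101452001 to 101594000) and 194 kb at 2 months (101230001 to 101424000). A stretch of 68 kb, from 101354001 to 101422000, was het in all 3 maps, and 65.9% of the cluster's bases were, against 31.5% of autosomal bases.

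By the definition of the cluster its distal end holds Krt8 and Krt18. The last 100 kb of this window, a length chosen here for that end, stood apart from the rest. They were 72.0% euch, 18.0% int and 10.0% het in P14 wild type, and 100% euch in both the knockout and the 2-month map. The window from 101800001 to 101850000 scored 0.92 in P14 wild type and 1 in both other maps. Its neighbour from 101850001 to 101900000 scored 0.32, 1 and 1, the largest rise of the cluster in the knockout. One euch domain of 58 kb, from 101804001 to 101862000, was present in P14 wild type and remained euch in all 3 maps. In the knockout it lay within a euch domain of 142 kb, and at 2 months within one of 288 kb that ran from 101792001 to 102080000, beyond the cluster. Without these 100 kb, openness of the type II cluster was -0.908 in wild-type hepatocytes at P14, -0.735 in the knockout and -0.745 at 2 months.

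The open distal end began 654 kb from the proximal limit in P14 wild type, at 650 kb in the knockout and at 642 kb at 2 months. Scores just proximal of it were higher at 2 months as well. From 101700001 to 101750000 the score was -1 in P14 wild-type, -0.72 in knockout and -0.24 in 2-month hepatocytes. From 101750001 to 101800000 it was -0.44, -0.2 and 0.12. These windows had 2 of the 3 largest rises of the cluster with age, 0.76 and 0.56. At 2 months they held separate euch stretches, from 578 to 584 kb and from 590 to 620 kb. A het domain from 620 to 642 kb set these apart from the open end. The knockout had such a stretch from 596 to 620 kb and P14 wild type one from 602 to 614 kb. Away from the distal end, the knockout had rises from 101400001 to 101450000, with -0.88, -0.32 and -0.72, and from 101200001 to 101250000, with -1, -0.6 and -0.84. In both, the 2-month score lay nearer to that of P14 wild type. The sole fall of the cluster, in the knockout and with age alike, was from 101450001 to 101500000, with -0.68, -0.92 and -0.8, where a euch stretch of 8 kb from 101460001 to 101468000 was het in both other maps.

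**Figure D3:**
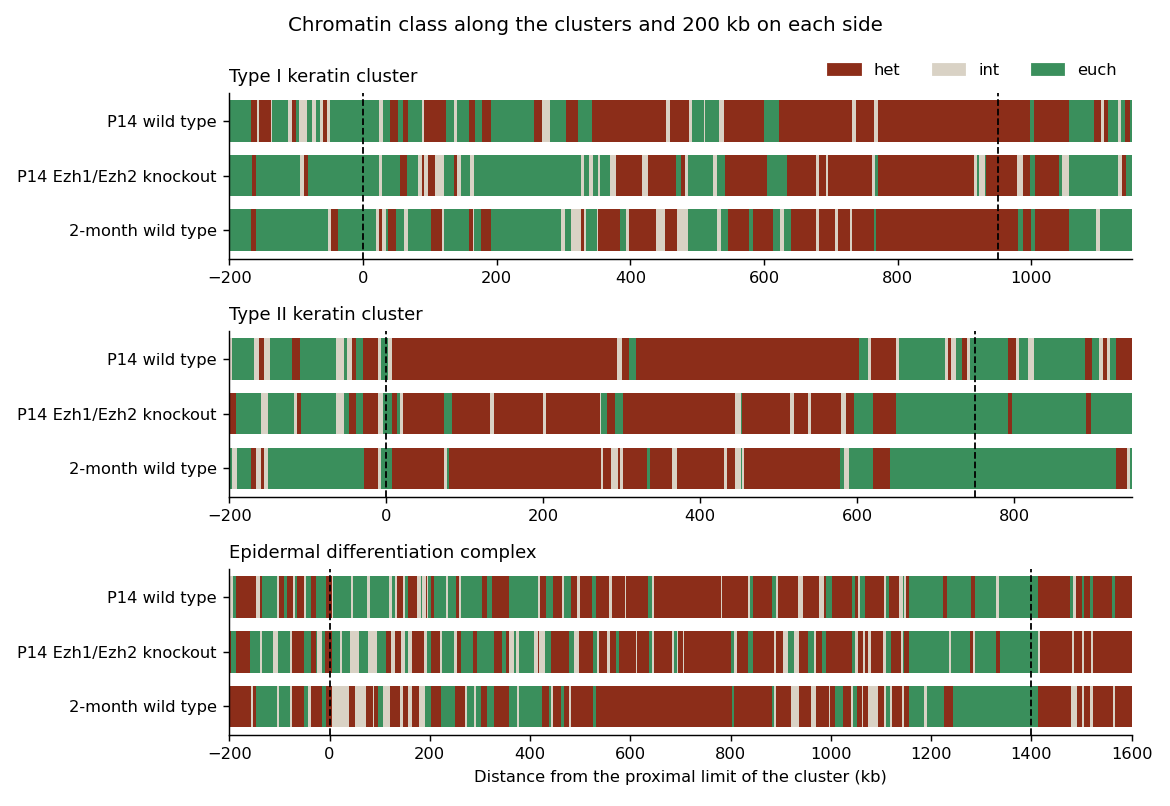
Calls of het, int and euch along each cluster (dashed limits) and 200 kb on each side, against distance (kb) from its proximal limit, 1 row for each of the 3 maps. The longest het domain of the type II cluster is 286 kb in P14 wild type, and the distal end is euch throughout in the knockout and at 2 months.

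The type I window fell into a more open proximal stretch and a more closed distal one, neither of them uniform. In P14 wild type the proximal stretch held scores near 0, with -0.04 from 99200001 to 99250000 and 0.04 from 99250001 to 99300000. The window from 99300001 to 99350000 was open throughout (score 1) in all 3 maps, and a stretch of 64 kb around it, from 99292001 to 99356000, was euch in all of them. Beyond it lay closed windows, of which 7 were het throughout in P14 wild type, 4 in the knockout and 3 at 2 months. The longest run of windows that all scored below 0 in each map was the most distal 300 kb, from 99750001 to 100050000. Because the run was picked by these scores, a high het share follows from the choice. Het covered 96.0% there in P14 wild-type, 88.7% in knockout and 94.7% in 2-month hepatocytes. The longest stretch that was het in all 3 maps, 144 kb from 99870001 to 100014000, lay there. In P14 wild type it was part of a het domain of 228 kb that ran past the distal limit to 100098000, so the closed block does not end where the window does. A more open island stood within the closed part, from 99600001 to 99650000, with scores of 0.4, 0.56 and 0.72 in P14 wild-type, knockout and 2-month hepatocytes. The window from 99700001 to 99750000 was mixed, with -0.12, 0.2 and -0.08.

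In the knockout, the largest rise among all 62 windows was at the proximal edge of this closed part. From 99450001 to 99500000 the score was -1 in P14 wild type, -0.08 in the knockout and -0.48 at 2 months. The adjoining window from 99400001 to 99450000 went from -0.04 to 0.8 in the knockout and stood at 0.44 at 2 months. From 99250001 to 99300000 the scores were 0.04, 0.88 and 0.08, so the 2-month map was close to P14 wild type while the knockout was far from both. The longest euch domain of the knockout, 160 kb from 99266001 to 99426000, covered most of the last of these windows and part of the one from 99400001, but ended before 99450001, and at 2 months the longest was 104 kb, from 99292001 to 99396000. With age the largest rises were from 99150001 to 99200000, with 0.2, 0.12 and 0.88, and from 99350001 to 99400000, with 0.28, 1 and 0.92. Falls were few: -0.12 and -0.08 were the only ones in the knockout, and with age the only one was -0.32, from 99100001 to 99150000, where the scores were 0.48, 0.92 and 0.16.

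The epidermal complex had a closed middle and, at P14, more open ends. The longest run of windows that all scored below 0 in each map had 14 windows, from 92450001 to 93150000. Because the run was picked by these scores, a high het share follows from the choice. Het covered 78.3% of it in P14 wild-type, 72.0% in knockout and 82.0% in 2-month hepatocytes. The run held a stretch of 72 kb, from 92708001 to 92780000, that was het in all 3 maps. The longest het domain was 132 kb in P14 wild type (92648001 to 92780000), 92 kb in the knockout and 270 kb at 2 months (92532001 to 92802000). The largest rise of the complex in the knockout lay proximal of this middle, from 92300001 to 92350000, with -0.44 in P14 wild type, 0.36 in the knockout and -0.36 at 2 months, so there the 2-month map was close to P14 wild type. Within the middle, the knockout scored higher from 92900001 to 92950000, with -0.8 in P14 wild type, -0.12 in the knockout and -0.68 at 2 months, and from 92800001 to 92850000, with -0.68, -0.24 and -0.84. At 2 months the middle was higher from 93000001 to 93050000, with -0.68, -0.72 and -0.04.

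At the distal end of the complex, which by gene order is the end nearest S100a11 and S100a10, chromatin was open in each map. The last window, from 93350001 to 93400000, scored 1 in all of them, and a stretch of 62 kb up to the limit was euch in all 3. The longest euch domain there was 78 kb in P14 wild type, and at 2 months one of 170 kb ran from 93244001 to 93414000. The proximal end was less open at 2 months than at P14, with euch giving way to int and to het. From 92050001 to 92100000 the score was 0.88 in P14 wild-type, 0.48 in knockout and -0.36 in 2-month hepatocytes, the largest change with age among the 62 windows. At 2 months that window was 48.0% int and 44.0% het. From 92000001 to 92050000 it was 0.72, 0.56 and -0.32, with 68.0% int and 32.0% het at 2 months. The next but one, from 92100001 to 92150000, scored 0.24, -0.2 and -0.36 and was thus below 0 in the knockout already. From 92250001 to 92300000 the score was 0.68, 0.28 and 0.04, and there het went from 12% in P14 wild type to 40% at 2 months. Int went from 8% to 16% in that window. The 1 Mb proximal flank scored -0.598, -0.686 and -0.784, whereas the distal flank scored -0.366, -0.402 and -0.262. The 100 kb next to the proximal end scored -0.16 in P14 wild type, -0.02 in the knockout and -0.18 at 2 months. These values average windows that changed in opposite directions with age. The window that touches the complex, from 91950001 to 92000000, scored 0.2, 0 and -0.32. The one before it, from 91900001 to 91950000, scored -0.52, -0.04 and -0.04. From 100 to 200 kb out the scores were -0.1, 0.22 and -0.08, and from 200 to 300 kb they were -0.54, -0.82 and -1. In net terms the lower score of the proximal flank thus came from further out, although the window that touches the complex was lower as well.

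The comparison of genotypes at P14 asks how closed chromatin fares without both enzymes of PRC2, and here it gave more open keratin clusters and no net difference for the epidermal complex. Openness of the type I cluster was higher in the knockout by 0.293, that of the type II cluster by 0.200, and that of the complex differed by -0.00571. The flanks of the keratin clusters were more open as well, by 0.204 for type I and 0.213 for type II, so relative to its flanks the type I cluster differed by 0.0886 and the type II cluster by -0.0130. With flanks of 500 kb both signs turned, to -0.0254 and 0.0400, so neither has a settled direction. Relative to its flanks the complex differed by 0.0563, but by -0.0362 with flanks of 2 Mb. The whole of chromosome 11 differed by 0.0749, chromosome 15 by 0.00725 and chromosome 3 by -0.0508. Of the het bases of P14 wild type, 30.5% of those in the type I cluster were no longer het in the knockout, 13.8% in the type II cluster and 27.4% in the complex, against 19.4% on the autosomes. For both keratin clusters this share was smaller than in their flanks, at 44.7% and 34.4%. In the complex, 27.4% stood against 5.30% in its flanks. The complex changed in both directions: 14.6% of its bases moved towards euch and 16.4% towards het.

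By window, 8 of 62 were more open in the knockout by over 0.5, which is 12.9%, against 7.18% of all autosomal windows. The type I cluster held 4 of them and the others 2 each. A fall of over 0.5 was seen in 1 window, 1.61%, against 8.53% of autosomal windows; it lay in the epidermal complex from 92200001 to 92250000, with 0.68 in P14 wild type and 0.16 in the knockout. A window that started within 0.5 of the floor of -1 could not fall by over 0.5. In P14 wild type 9 of 15 type II, 7 of 19 type I and 2 of 28 windows of the complex scored -1. The median P14 wild-type score was -0.56 over the 62 windows, against -0.04 over all autosomal windows. Many of the 62 were thus barred from such a fall, so 1.61% and 8.53% are not on an equal footing. A window that started within 0.5 of the ceiling of 1 could in turn not rise by over 0.5. In P14 wild type 3.23% of the 62 windows were euch throughout, against 12.1% of autosomal windows. The percentages of rises, 12.9% and 7.18%, are thus not on an equal footing either. The median change was 0.16 for type I windows, 0.12 for type II windows and -0.04 for the complex, against 0 over all autosomal windows. Neighbouring windows share domains and are not independent of each other.

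The comparison of ages in wild-type mice addresses maturation of the liver after birth. Openness was higher at 2 months by 0.198 in the type I and by 0.192 in the type II cluster, and in the epidermal complex the difference was -0.189. Flanks of the type I cluster rose more than the cluster did, by 0.317, and those of the type II cluster by 0.201, while those of the complex differed by -0.0410. The complex thus differed by -0.148 relative to its flanks and the type I cluster by -0.119, while the type II cluster differed by -0.00900. Chromosomes 11 and 3 as wholes differed in the direction of their clusters, by 0.125 and -0.107, and chromosome 15 by 0.0302. In the complex 39.5% of the P14 euch bases were no longer euch at 2 months, against 22.7% on the autosomes, 17.0% in the type I and 8.51% in the type II cluster. The flanks of the complex lost 33.8% of theirs, and its proximal flank alone 69.7%. A rise of over 0.5 was seen in 7 of 62 windows, or 11.3%, against 12.5% of autosomal windows, and a fall in 4, or 6.45%, against 13.9%. All 4 falls lay in the complex and 6 of the 7 rises in the keratin clusters. Windows within 0.5 of -1 in P14 wild type could not fall by over 0.5 here either, and those within 0.5 of 1 could not rise by as much. The median P14 wild-type score was -1 for type II windows, -0.48 for type I windows and -0.3 for the complex. Starting scores thus limited where falls could be counted, most of all in the type II cluster. The map of wild-type hepatocytes at P14 is part of this comparison and of that between genotypes, so the values of a window in the 2 comparisons are not independent.

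**Figure D4:**
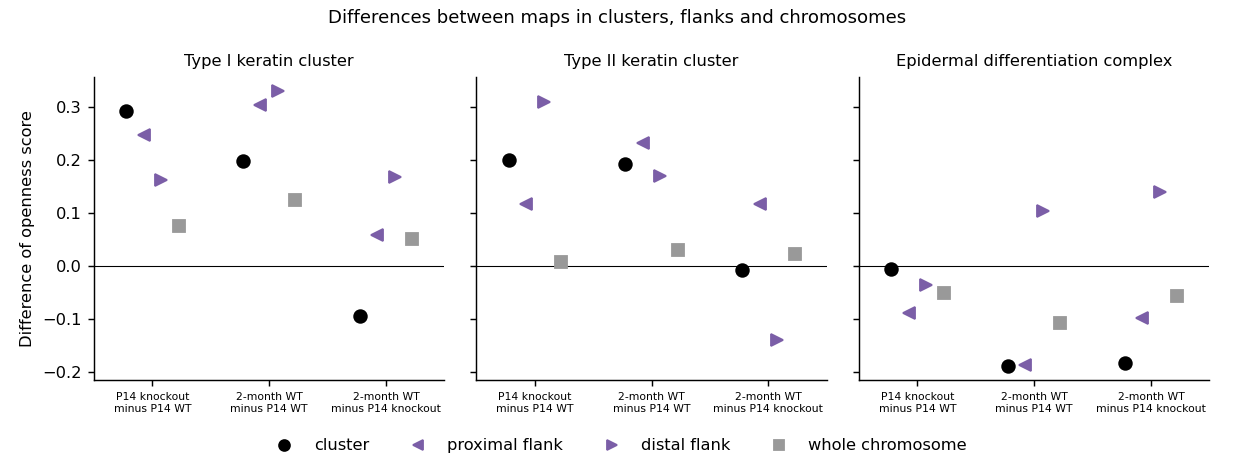
Difference of openness score between maps for each cluster (circle), its proximal and distal flank (triangles) and its whole chromosome (square), in each of the 3 comparisons. In the keratin clusters the differences from P14 wild type are above 0 and accompanied by differences of the same sign in both flanks, and in the epidermal complex the 2-month difference is -0.189 and the knockout difference -0.00571.

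Set directly against the P14 knockout, the 2-month map differs in age and genotype together. Openness at 2 months differed from that of the knockout by -0.0947 in the type I cluster, by -0.183 in the epidermal complex and by -0.00800 in the type II cluster. Windows lower by over 0.5 numbered 9 of 62, or 14.5%, against 8.77% of autosomal windows, and 7 of these were in the complex. With windows shifted by 25 kb they numbered 5 of 59, or 8.47%, against 8.77%, so the excess over the autosomes was absent there. Windows near the floor in the knockout could not be lower by over 0.5, and those near the ceiling could not be higher by over 0.5. The median knockout score was -0.8 for type II windows, -0.04 for type I windows and -0.16 for the complex. Windows higher by over 0.5 numbered 2, or 3.23%, against 8.72%. In the flanks of the type I cluster the 2-month score was higher by 0.113, opposite to the cluster.

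The clusters also differed in how finely they were divided. On the autosomes there were 49.1 domains per Mb in P14 wild-type, 45.1 in knockout and 34.5 in 2-month hepatocytes. In the type I cluster the number of domains was instead 36, 47 and 49, or 37.9, 49.5 and 51.6 per Mb. In the type II cluster it was 19, 28 and 26, or 25.3, 37.3 and 34.7 per Mb. Both thus had more domains in the maps where the autosomes had fewer. The epidermal complex held 82, 95 and 70, or 58.6, 67.9 and 50.0 per Mb, above the autosomal density in each map. Domain edges of P14 wild type lay within 2 kb of an edge of the knockout in 16 of 35 cases for type I, 5 of 18 for type II and 43 of 81 for the complex, against 46.2% on the autosomes. For the 2-month map these numbers were 19, 4 and 30, against 33.0%.

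The same class was called in all 3 maps for 77.3% of the type II cluster, 59.2% of the type I cluster and 55.7% of the complex, against 65.0% of autosomal bases. The knockout was the one map that differed from the other 2 in 13.9% of the type I cluster and 11.7% of the complex, against 7.60% on the autosomes and 5.87% in the type II cluster. The 2-month map was the one that differed in 11.8%, 5.60% and 13.3% of the type I cluster, type II cluster and complex, against 10.4%. For P14 wild type the shares were 10.1%, 9.07% and 11.7%, against 11.8%. No run of at least 100 kb that was int in all maps lay in a cluster, and the longest shared int stretch in a cluster was 4 kb.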

How the data were processed

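The submitters' processing notes give mm9 as the build and name STAR (2.4.2a), bedtools and bcl2fastq (2.19.0.316); the program that called domains and its thresholds are not given in the sources used here. The authors deposited 9 lists of intervals, 1 for each class in each group, with a score column that is 0 throughout. All 5 mice of a group point to the same lists in the labels (1 female at 2 months lacks the euch list), so a list was read as a pool. Within a map no intervals overlapped, and autosomal starts lay on a grid of 2 kb. How calls were scaled within a map is unknown, so similar genome-wide shares do not show equal amounts. The unequal mix of sexes in the groups was not tested.

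Maps were read in 2 kb units on the autosomes in Python 3.11.15 with pandas 2.3.3, SciPy 1.17.1 and NumPy 2.4.6, and drawn with Matplotlib 3.10.9. The functions were tested on simulated data. A window was counted as changed when its openness differed by more than 0.5. Windows named come from the 3 largest rises and falls of each cluster and comparison, and the most open and most closed. Both distal type II windows and the longest domains and stretches were named too. The longest runs of windows below 0 in all 3 maps were picked from the scores themselves. The type I windows from 99600001 to 99650000 and from 99700001 to 99750000 were chosen after their values were seen. So were the named windows of the proximal flank of the complex and the 5 promoters. Clusters, gene lists and measures were chosen with earlier results of these data known.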

Additional observations from a re-analysis of the deposited data

How the results depend on the processing

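Of 129 alternative values, 29 of 30 changes of openness, 37 of 45 differences from flanks, 25 of 30 openness levels and 8 of 24 window counts stayed near the reported value: within its 95% binomial interval over 2 kb units, which are not independent, or, for counts, within 1.5 times. For changes this interval was wide beside some of the values. In the type I cluster the 2-month score differed from that of the knockout by -0.0947, with an interval of 0.129 to either side. With 50 kb trimmed from both ends that difference was -0.0329 and still counted as near. Without the last 100 kb, openness of the type II cluster was -0.908 (P14 wild type), -0.735 (knockout) and -0.745 (2 months). With 50 kb trimmed from both ends, openness of the type II cluster was -0.625 in the knockout and -0.615 at 2 months. Its gap to the flanks in the knockout was then -1.002, and its difference between 2 months and knockout was 0.00923 in place of -0.00800. With flanks of 500 kb its 2-month gap was -0.988, and that of the epidermal complex was 0.570, 0.642 and 0.461 in P14 wild type, knockout and 2 months. With flanks of 2 Mb the latter were 0.0972, 0.0610 and -0.157. With a threshold of 0.3, windows more open and more closed were 16 and 5 (knockout against P14 wild type), 12 and 10 (2 months against P14 wild type), and 6 and 16 (2 months against knockout). These are 25.8% and 8.06%, 19.4% and 16.1%, and 9.68% and 25.8% of 62 windows, against 15.9% and 16.8%, 21.6% and 21.2%, and 16.7% and 16.5% of autosomal windows. With 0.7 they were 5 and 0, 1 and 2, and 1 and 5, against 2.93% and 3.95%, 7.17% and 8.66%, and 4.56% and 4.48% of autosomal windows. Windows shifted by 25 kb (59 windows) gave 2 more closed in the knockout (3.39% against 8.54%), and 0 more open (against 8.70%) and 5 more closed (8.47% against 8.77%) at 2 months against the knockout. Without domains under 5 kb, 7 windows were more closed with age (11.3% against 14.1%). The causes were not tested. Leaving out the 1449 autosomal windows that were int throughout, a choice made after seeing the data, gave background percentages of 7.40 and 8.79 for the knockout and 12.9 and 14.3 for age. No paired analysis was possible because each list pools its group, so leaving out single animals was not possible either. The depth behind a call is unknown.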
